A study of Mus musculus with 8 samples.

Results

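Efferocytosis is the engulfment of dying cells by macrophages. Its best known receptors and the bridging ligands that link them to a dying cell are encoded by 7 genes, Tyro3, Axl, Mertk, Timd4, Gas6, Pros1 and Mfge8. They were measured here in macrophages sorted from mouse mammary tumours. Their probe sets, the groups of short probes that report one transcript on an Affymetrix array, were taken wherever the platform's annotation names exactly 1 gene symbol and that symbol is one of the 7. This gave 10 probe sets of the 45101 on the array. Each gene was represented by its probe set with the highest mean over the 8 arrays, so the 7 stand among 18193 genes chosen in the same way.

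All cells came from 80-day-old mice of the FVB strain with mammary tumours driven by the PyMT transgene, a viral oncogene, and all mice carried E2f3 alleles flanked by recombination sites (E2f3 f/f). Cells positive for F4/80, a macrophage surface protein, were sorted by flow cytometry. The controls, replicates B, C, D and G (4 arrays), were PyMT;E2f3 f/f without Cre recombinase. The E2f3-deleted samples, replicates A, E, F and H (4 arrays), were PyMT;Lys Cre;E2f3 f/f, in which Cre is driven from the lysozyme gene, a gene of myeloid cells. The comparison asked what loss of E2f3, a transcription factor of the cell cycle, does to gene expression in these macrophages. No group carries Cre without the floxed deletion, so the deletion and the presence of Cre cannot be told apart. The labels do not say whether arrays came from separate animals, so the p-values reflect only how far these samples vary, and that variation may be technical.

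A dying cell exposes phosphatidylserine on its surface. TYRO3, AXL and MERTK form a family of receptor tyrosine kinases that do not bind this lipid themselves but are activated by GAS6 and protein S (PROS1), vitamin K dependent proteins that hold the lipid at one end and the receptor at the other. TIMD4 binds phosphatidylserine directly and is known from tissue-resident macrophages. MFGE8 bridges phosphatidylserine to integrins and is also an abundant protein of the milk fat globule, made by mammary epithelium.

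The 8 arrays had median log2 signals from 5.65 to 5.69. E2f3-deleted replicate H stood apart, with a mean correlation of 0.983 to its own group over all probe sets. The controls had 0.994 to 0.995, and A, E and F had 0.990 to 0.991. The sorted cells had the signals of macrophages: all 11 macrophage markers with a probe set (of 12 listed) lay above the median gene of the controls. The brighter E2f3 probe set had signals of 7.66, 7.63, 7.83 and 7.58 in controls B, C, D and G and 7.65, 7.54, 7.53 and 7.79 in E2f3-deleted A, E, F and H. The groups overlapped (difference −0.05; limma, adjusted p = 0.865 over all probe sets), as they did on the dimmer E2f3 probe set (difference −0.13; limma, adjusted p = 0.613), and this does not check the labels, which leave unsaid what stretch of the gene is removed. Over the 10916 genes whose mean signal passed a filter at the 40th percentile, 0 passed an adjusted p of 0.05 in limma (0% of genes), while 1547 had an unadjusted p under 0.05 (14.2%).

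Among the 7 genes, Mertk was the one whose 4 E2f3-deleted arrays all lay below the 4 control arrays, by a mean of 0.39 log2 units. Gas6, one of the ligands of Mertk, had values of −0.26 and −0.29 on its 2 probe sets, and on the dimmer of them the groups did not overlap. Axl and Pros1 differed by less than 0.1 log2 units. Mfge8 and Timd4 varied most between the arrays of one group. The 5 genes that passed the filter were Axl, Mertk, Gas6, Pros1 and Mfge8, and 3 of them were lower and 2 higher in E2f3-deleted macrophages, with a median difference of −0.03, which is also the median of all genes tested (−0.03). None of the 5 passed the threshold (limma, smallest adjusted p = 0.267). Of the 5, 1 had an unadjusted p under 0.05 in limma, Mertk, which was lower. At that p 6.9% of all genes were lower and 14.2% differed in either direction. Mertk also had groups that did not overlap. Of all genes, 4.22% were lower without overlap, 4.26% were higher and 8.48% were either. Tyro3 and Timd4 did not pass the filter and were tested among all probe sets.

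**Figure D1:**
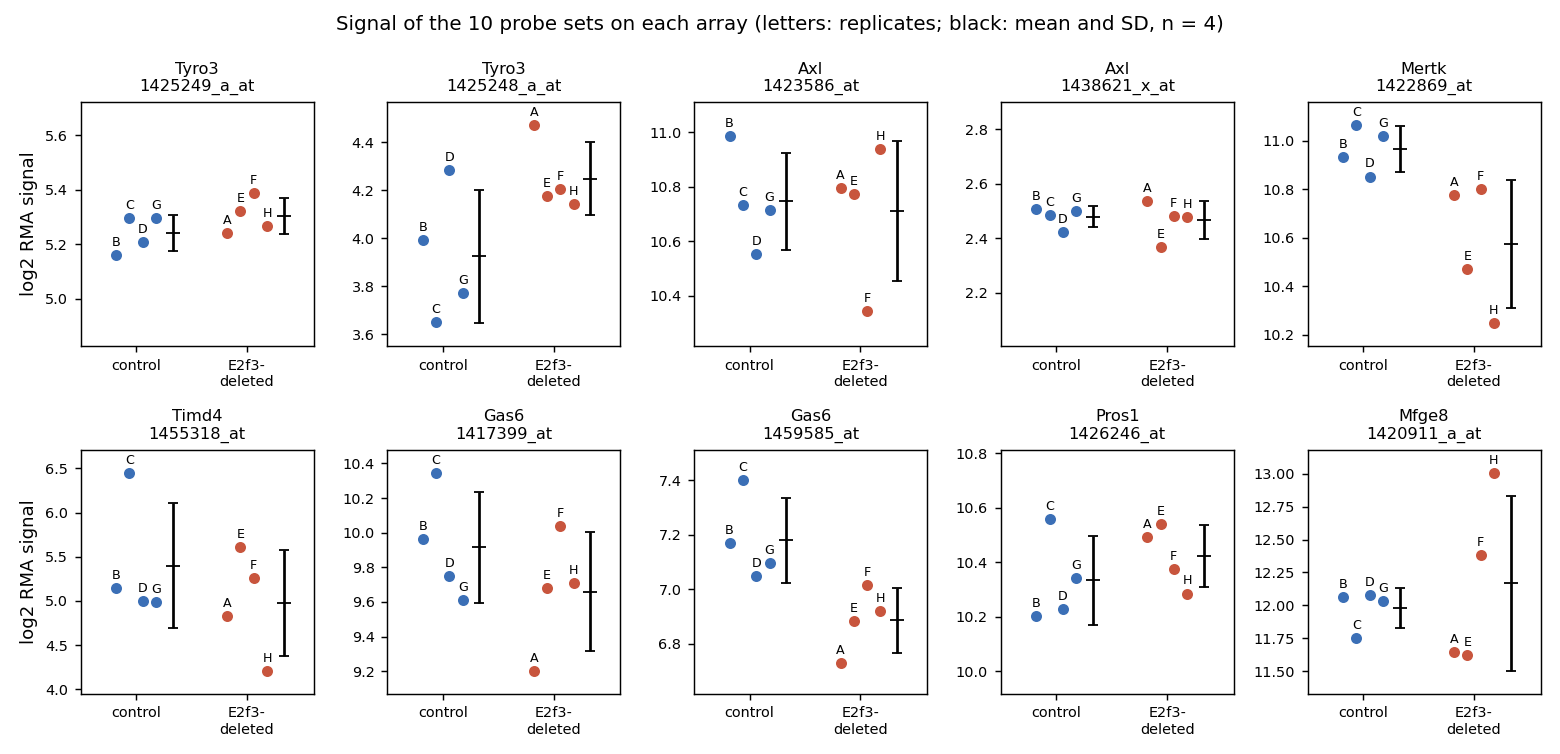
Log2 signal (vertical axes, each with its own range of at least 0.8 log2 units) of the 10 probe sets on each array, in controls (blue) and E2f3-deleted macrophages (red), with replicate letters and, in black, the mean and SD of each group (n = 4). Mertk and the dimmer Gas6 probe set are the panels in which the groups do not overlap.

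MERTK is the receptor of this family most associated with the clearance of dying cells by macrophages. Its single probe set, 1422869_at, had log2 signals of 10.93, 11.07, 10.85 and 11.02 in controls B, C, D and G. In A, E, F and H, the E2f3-deleted arrays, they were 10.78, 10.47, 10.80 and 10.25. All 4 E2f3-deleted arrays were therefore below the lowest control, replicates A and F by little and E and H by more. The means were 10.97 ± 0.0949 and 10.57 ± 0.264 (SD, n = 4 each). They differed by −0.39 (SE 0.128), which is 1.31-fold, with a 95% confidence interval from 1.07-fold to 1.61-fold lower. The difference did not pass the threshold over all genes tested (limma, unadjusted p = 0.0148, adjusted p = 0.267), and 1.06% of all genes had a difference below it. Without replicate H the difference was −0.29 (limma, adjusted p = 0.272).

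Of the 11 macrophage markers measured, 10 had a difference below 0, as did 58.7% of all genes. Their median difference was −0.13, and none passed the threshold (limma, smallest adjusted p = 0.274). Their per-array medians, relative to the control mean, ran from −0.20 to −0.13 in E2f3-deleted arrays and from −0.08 to 0.16 in controls. Adgre1, which encodes the F4/80 protein used to sort the cells, had a difference of −0.18 (SE 0.0612). Cd68, a lysosomal membrane protein, had −0.29 (SE 0.0954), and both had the smallest p-values of the 11. As with Mertk, their groups did not overlap. That is 2 of 11 lower without overlap, against 4.22% of all genes. Csf1r, the receptor for the macrophage growth factor, had −0.01, the complement gene C1qa −0.03 and Cd14, a receptor for bacterial lipopolysaccharide, 0.01. Markers of resident macrophages (Lyve1, Folr2, Cd163, Vsig4 and Mrc1) were, like Mertk, highest in control C and lowest in E2f3-deleted H, 5 of 5 in both cases. The medians of the macrophage and dendritic cell markers were also highest in C (0.16 and 0.37) and lowest in H (−0.20 and −1.25). The share of all genes with these extremes was not counted. The resident markers had a median difference of −0.40, with none past the threshold (limma, smallest adjusted p = 0.520). Their part in the Mertk values was not tested. In sorted cells measured in bulk, fewer macrophages and less of a transcript per macrophage cannot be told apart. Taken relative to each array's macrophage marker median, Mertk had a difference of −0.23 (limma, adjusted p = 0.288) and its groups overlapped. That scaling raises the median difference of all genes by 0.16. The descriptions of the samples name scan files by letters other than those of the titles. With the groups taken from those letters, which exchanges control B and E2f3-deleted F, Mertk had a difference of −0.33 and its groups overlapped.

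The promoters of Mertk, of its ligand Gas6 and of Axl, the family member with the smallest difference, are shown because E2f3 encodes a factor that acts at promoters. Each window holds 250 bases before to 50 after the gene's start, from RefSeq on build GRCm38.p6, 5′ to 3′ on the gene's strand. All 7 genes matched a promoter in that table.
Mertk, chr2:128698665-128698964, plus strand, with matches to the E2F core in capitals: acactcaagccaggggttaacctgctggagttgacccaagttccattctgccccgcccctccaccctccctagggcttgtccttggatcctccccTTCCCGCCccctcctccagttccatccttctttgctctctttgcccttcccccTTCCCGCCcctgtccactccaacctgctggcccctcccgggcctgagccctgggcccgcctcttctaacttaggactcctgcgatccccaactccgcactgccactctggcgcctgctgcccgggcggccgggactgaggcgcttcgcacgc
Gas6, chr8:13494486-13494785, minus strand, with GC boxes on either strand in capitals: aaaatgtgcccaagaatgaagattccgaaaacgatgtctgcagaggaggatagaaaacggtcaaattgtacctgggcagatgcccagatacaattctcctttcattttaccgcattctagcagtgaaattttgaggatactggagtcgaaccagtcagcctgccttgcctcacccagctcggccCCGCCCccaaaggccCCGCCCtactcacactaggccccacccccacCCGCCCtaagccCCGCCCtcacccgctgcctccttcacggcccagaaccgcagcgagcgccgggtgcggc
Axl, chr7:25788684-25788983, minus strand, with GC boxes on either strand in capitals: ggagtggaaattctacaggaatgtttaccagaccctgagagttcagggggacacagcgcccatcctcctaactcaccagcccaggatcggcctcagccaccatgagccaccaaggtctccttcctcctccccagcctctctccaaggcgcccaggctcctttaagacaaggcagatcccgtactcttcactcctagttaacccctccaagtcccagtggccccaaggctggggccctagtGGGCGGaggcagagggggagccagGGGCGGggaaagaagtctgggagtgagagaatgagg
The E2F core searched was TTCCCGCC, along with the 4 consensus forms TTTCCCGC, TTTGGCGC, TTTCGCGC and TTTGCCGC, all on both strands. The core overlaps the first of these forms by 7 letters and the GC box GGGCGG by 5. Mertk held the core 2 times, ending 147 and 94 bases before the last base ahead of the start. None of the other 6 promoters held it or any consensus form. Over all 32851 promoters in the table, 2.19% held the core, 0.0517% held it at least 2 times, and 3.89% held any of the 5 E2F forms. The core was added to the search after the promoters had been read. Mertk also held 4 GC boxes, 2 of which share 5 letters each with its E2F cores, so both core matches lie on GC boxes as well. GC boxes, the sites of Sp1 type factors, were in 6 of the 7 promoters, all but that of Timd4, against 35.7% of all promoters. Those 6 windows held 58.3% to 73.3% G and C and that of Timd4 50.7%, against a median of 52.7%. The part of this in the count of GC boxes was not tested. A match of letters is a description and not a binding site.

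AXL is the receptor of the same family that is induced by interferon and inflammatory signals and is also made by many stromal cells. Its brighter probe set, 1423586_at, had signals of 10.99, 10.73, 10.55 and 10.72 in controls B, C, D and G and 10.79, 10.77, 10.34 and 10.94 in E2f3-deleted A, E, F and H. The groups lay across each other, with the lowest value in E2f3-deleted F and the highest in control B. The difference was −0.03 (SE 0.141; limma, adjusted p = 0.929), with a 95% confidence interval from −0.36 to 0.29. Its sign turned without control B (0.05), without E2f3-deleted F (0.09), relative to the macrophage marker median (0.13) and with the endothelial (0.19) or epithelial (0.08) median as a covariate. By scan file letter it was 0.29, and the groups then did not overlap. The other Axl probe set, 1438621_x_at, lay at 2.37 to 2.54 on every array, in the lowest 1.65% of probe set means, where differences cannot be read. The suffix _x_ marks probe sets whose probes may bind several transcripts.

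TYRO3 is the third receptor of the family and is best known from the nervous system. Both of its probe sets lay below the filter, with means of 5.27 and 4.09. On 1425249_a_at the signals ran from 5.16 to 5.30 in controls and from 5.24 to 5.39 in E2f3-deleted arrays, a difference of 0.06 (SE 0.0643; limma, adjusted p = 0.745 over all probe sets). On 1425248_a_at, which was dimmer, the arrays had 3.99, 3.65, 4.28 and 3.77 in controls B, C, D and G, and 4.47, 4.17, 4.21 and 4.14 in E2f3-deleted A, E, F and H. Only control D reached into the range of the E2f3-deleted arrays, and the difference of 0.32 (SE 0.140) did not pass the threshold over all probe sets (limma, unadjusted p = 0.0466, adjusted p = 0.489). At this level, in the lowest 26.5% of probe set means, background signal compresses differences.

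TIMD4 is a phosphatidylserine receptor of resident macrophages. Its probe set, 1455318_at, also lay below the filter, with a mean of 5.19. Signals were 5.15, 6.45, 5.001 and 4.99 in controls B, C, D and G and 4.83, 5.61, 5.26 and 4.21 in E2f3-deleted A, E, F and H. Control C was far above the other 3 controls and E2f3-deleted H far below every other array. The difference of −0.42 (SE 0.386; limma, adjusted p = 0.716 over all probe sets) was −0.07 without control C and −0.16 without replicate H. Other genes of resident macrophages had their extremes on the same arrays. Of the 5 listed, Lyve1, Folr2, Cd163, Vsig4 and Mrc1, 5 were highest in control C and 5 lowest in E2f3-deleted H. The medians of the macrophage and dendritic cell markers had their extremes there as well. The share of all genes with these extremes was not counted here either, and replicate H stood apart over all probe sets. Lyve1, a hyaluronan receptor, had a signal of 12.38 in control C, from 11.395 to 12.004 in the other controls, from 11.40 to 12.01 in E2f3-deleted A, E and F, and 9.90 in H. Cd163, a scavenger receptor for haemoglobin, had 11.80 in control C and 9.49 in H. None of the 5 passed the threshold between the groups (limma, smallest adjusted p = 0.520), and the part of these markers in the Timd4 values was not tested.

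**Figure D2:**
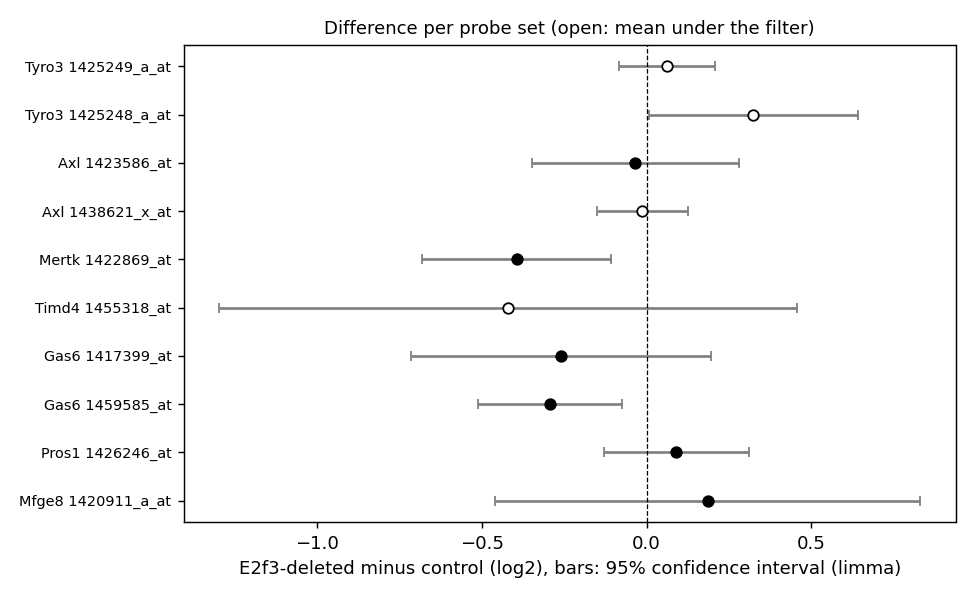
Log2 difference of E2f3-deleted from control arrays (horizontal axis) for each probe set, with its 95% confidence interval from limma over all probe sets. Open circles are probe sets under the filter; the intervals of Mertk, the dimmer Gas6 and the dimmer Tyro3 probe set do not include 0, and 0 of the 10 passed after adjustment.

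GAS6 is the ligand that can activate all 3 receptors of the family. Its brighter probe set, 1417399_at, had signals of 9.96, 10.35, 9.75 and 9.61 in controls B, C, D and G and 9.20, 9.68, 10.04 and 9.71 in E2f3-deleted A, E, F and H. The groups overlapped widely, the difference was −0.26 (SE 0.207; limma, adjusted p = 0.577), and its 95% confidence interval ran from −0.73 to 0.22. The dimmer probe set, 1459585_at, had 7.17, 7.40, 7.05 and 7.10 in the controls and 6.73, 6.88, 7.02 and 6.92 in the E2f3-deleted arrays. Here all E2f3-deleted arrays lay below all controls, F by little. The difference of −0.29 (SE 0.0960) had an interval from −0.51 to −0.08 and did not pass the threshold over all probe sets (limma, unadjusted p = 0.0140, adjusted p = 0.413). Both probe sets were highest in control C and lowest in E2f3-deleted A. Without control C the brighter probe set differed by −0.12 and without replicate A by −0.11. Relative to the macrophage marker median the differences were −0.09 and −0.13, and the groups of the dimmer probe set overlapped. They also overlapped under the grouping by scan file letter, where it differed by −0.22.

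Counted over probe sets, 2 of the 10 were lower without overlap, those of Mertk and Gas6, against 3.45% of all probe sets, and 0 were higher without overlap, against 2.51% (5.97% in either direction). Of the 10, 3 had an unadjusted p under 0.05, 2 lower and 1 higher, against 5.49% and 4.59% of all probe sets (10.1% in all), and 0 passed after adjustment in limma. Probe sets of one gene are not independent of each other.

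PROS1, protein S, is an anticoagulant of plasma and a ligand of TYRO3 and MERTK. Its probe set, 1426246_at, had signals of 10.20, 10.56, 10.23 and 10.34 in controls B, C, D and G and 10.49, 10.54, 10.38 and 10.29 in E2f3-deleted A, E, F and H. The highest and the lowest array were both controls, C and B. The difference was 0.09 (SE 0.0955; limma, adjusted p = 0.678), with a 95% confidence interval from −0.13 to 0.31. Relative to the macrophage marker median it was 0.25 (limma, adjusted p = 0.145), and the groups then did not overlap.

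MFGE8 had signals of 12.06, 11.76, 12.08 and 12.03 in controls B, C, D and G on its probe set 1420911_a_at. In E2f3-deleted A, E, F and H they were 11.65, 11.62, 12.39 and 13.01. The E2f3-deleted arrays lay on both sides of the controls, A and E below all of them and F and H above. The spread was correspondingly unequal, with means of 11.98 ± 0.152 for controls and 12.17 ± 0.662 for E2f3-deleted arrays (SD, n = 4 each). The difference of 0.19 (SE 0.296; limma, adjusted p = 0.787) had an interval from −0.50 to 0.87 and turned to −0.10 without replicate H. Cells that make MFGE8 outside the macrophage lineage include mammary epithelium and stroma, and markers of several such types differed between the arrays. In replicate H the fibroblast marker median was 1.76 above the control mean (12 of 12 listed genes measured), and in F the epithelial median was 0.89 above it (19 of 19 measured). In H the epithelial median was −0.42. In A and E, where Mfge8 was low, the fibroblast medians were 0.90 and 0.02 and the epithelial medians 0.26 and 0.64. With the epithelial median as a covariate Mfge8 differed by 0.30 (limma, adjusted p = 0.612), with the fibroblast median by −0.21 and with the endothelial median by 0.68. By scan file letter it differed by 0.02. The part of other cell types in the Mfge8 values was not tested beyond these covariates.

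**Figure D3:**
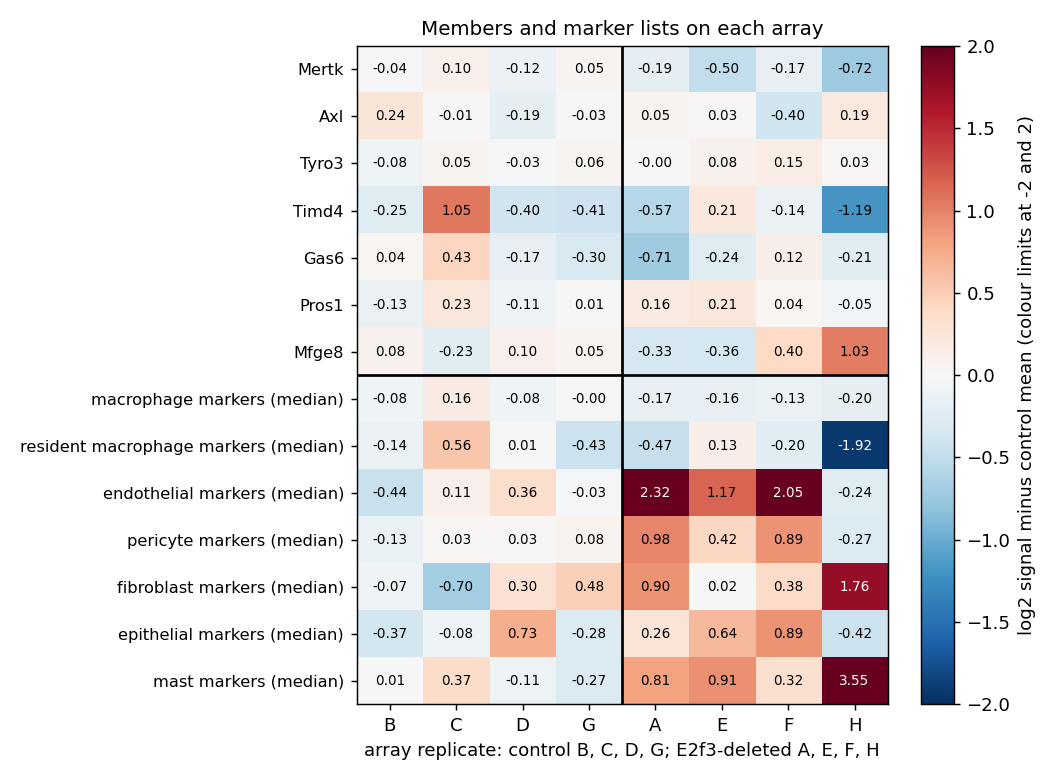
Log2 signal of the 7 genes (upper rows, representative probe sets) and median of marker lists (lower rows) on each array, as a difference from the control mean, with colours limited to −2 and 2 and the values printed. Mertk is below 0 on all 4 E2f3-deleted arrays and Mfge8 is highest in H. Mertk, Timd4 and the macrophage and resident macrophage marker medians are highest in C and lowest in H.

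The marker lists place these values among the other cells the sort could hold. Of 18 endothelial markers, 16 passed the filter and all 16 were higher in E2f3-deleted macrophages, none past the threshold (limma, smallest adjusted p = 0.218). At an unadjusted p under 0.05 in limma, 14 of the 16 were higher, against 7.27% of all genes. The endothelial markers had medians from −0.24 to 2.32 in E2f3-deleted arrays and from −0.44 to 0.36 in controls. Their log2 summed signals were 11.4 to 13.7 and 10.8 to 11.9. Pecam1 and Cdh5 were the listed endothelial markers that did not pass the filter. Their mean signals were 4.87 and 5.21 in controls and 5.85 and 6.22 in E2f3-deleted macrophages. Fibroblast markers had summed signals of 13.7 to 15.8 in E2f3-deleted arrays and 13.3 to 14.5 in controls. Mast cell markers (7 of 8 passed the filter) had 9.77 to 13.8 and 9.25 to 9.92. Of the markers tested, those of lymphocytes (3 of 3), dendritic cells (2 of 2) and monocytes (2 of 3) were lower. Those of pericytes (7 of 8), epithelium (16 of 19) and neutrophils (2 of 2) were higher. None of these passed the threshold in limma. Mertk was lowest in replicate H, where the fibroblast median of 1.76 and the mast cell median of 3.55 were the highest of the 8 arrays and the endothelial median was −0.24. It was next lowest in E, where these medians were 0.02, 0.91 and 1.17. With the endothelial median as a covariate Mertk differed by −0.66 (limma, adjusted p = 0.157), and with the fibroblast median by −0.28 (limma, adjusted p = 0.598). As a gauge of RNA degradation, Gapdh was brighter at its 3′ end than at its 5′ end by 1.67 ± 0.167 log2 units on E2f3-deleted arrays and by 1.45 ± 0.0637 on control arrays (SD, n = 4 each). The part of this in the results was not tested.

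Around these receptors and ligands, 75 further genes of efferocytosis were listed in 8 groups. A probe set was found for 70, and 60 passed the filter. Of the 60, 40 were lower and 20 higher in E2f3-deleted macrophages, with a median difference of −0.06, beside 58.7% lower and a median of −0.03 over all genes. None passed the threshold (limma, smallest adjusted p = 0.158). At an unadjusted p under 0.05 there were 9 lower (6.9% of all genes) and 2 higher (7.27% of all genes). The groups did not overlap for 5 lower (4.22% of all genes) and 2 higher (4.26% of all genes). The lists were chosen with earlier results of these data known, so these counts are a description.

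Among the other receptors and bridges, 7 of 13 were lower, with a median of −0.06. Lrp1, a large endocytic receptor that takes up calreticulin-marked cells, had signals of 11.81, 11.80, 11.79 and 11.71 in controls B, C, D and G and 11.38, 11.41, 11.37 and 11.73 in E2f3-deleted A, E, F and H. Replicates A, E and F lay well below the controls and H among them, for a difference of −0.30 (SE 0.0877; limma, adjusted p = 0.237). Cd300lf, a receptor for phosphatidylserine and ceramide, had groups that did not overlap and a difference of −0.22 (SE 0.0778; limma, adjusted p = 0.290).

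In the engulfment machinery, 8 of 11 genes were lower, with a median of −0.10. Gulp1, an adaptor of engulfment receptors, had the widest difference of the 60. Its signals were 6.49, 6.24, 6.77 and 6.60 in the controls and 7.93, 6.85, 7.62 and 8.69 in E2f3-deleted A, E, F and H, so that E lay just above the controls and H far above. The difference was 1.25 (SE 0.344), 2.37-fold, and did not pass the threshold (limma, adjusted p = 0.226). On replicate H, where Gulp1 was highest, the fibroblast marker median was 1.76 and the mast cell median 3.55 above the control mean, and the part of the mast cell markers was not tested. With the fibroblast median as a covariate Gulp1 differed by 0.64 (limma, adjusted p = 0.442), and without H by 0.94. With the endothelial median it differed by 1.61 (limma, adjusted p = 0.162), with the epithelial median by 1.42 and without E by 1.55. Vav1, an activator of Rac in blood cells, had a difference of −0.23 (SE 0.0671; limma, adjusted p = 0.237) without overlap.

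Genes of receptor signalling included the smallest p-value of the 60. Pik3r1, a regulatory subunit of phosphoinositide kinase, had signals of 9.72 to 9.78 in controls and 10.02 to 10.17 in E2f3-deleted arrays, a difference of 0.33 (SE 0.0514; limma, adjusted p = 0.158). Grb2, an adaptor that binds activated receptor kinases, ran from 10.76 to 10.85 in controls and from 10.47 to 10.74 in E2f3-deleted arrays, a difference of −0.24 (SE 0.0678; limma, adjusted p = 0.234). Socs3 and Ifnar1, which also take part in signalling by these receptors, had −0.01 and −0.03.

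Phagosome maturation had 7 of 11 genes lower, with a median of −0.03. The autophagy genes Atg7 and Atg5, which act in the lipidation of LC3 on phagosomes, had −0.29 and −0.14, both without overlap between the groups (limma, adjusted p = 0.293 and 0.298). The sterol efflux and nuclear receptor genes were lower in 7 of 9, with a median of −0.08, and none of them had an unadjusted p under 0.05. Their smallest p-values were those of the lipid transporters Abca7 (−0.26) and Abcg1 (−0.21), while Nr1h3, which encodes liver X receptor alpha, an activator of Mertk transcription, had −0.21 (SE 0.135; limma, adjusted p = 0.501).

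Of the 4 tested genes of ligand maturation and shedding, the one farthest from 0 was Lgals3, galectin 3, a further ligand of MERTK (−0.25, SE 0.116; limma, adjusted p = 0.380). Adam17, the protease that sheds MERTK from the cell surface, had 0.01 (SE 0.0458), and Vkorc1, which recycles the vitamin K needed to make GAS6 and protein S, had 0.06 (SE 0.0569). The find-me receptors were lower in 4 of 4, with P2ry12 at −0.30 (SE 0.104) and P2ry6, a receptor for nucleotides released by dying cells, at −0.16 (SE 0.0746). Of the 4 tested scramblases and flippases, which set the side of the membrane on which phosphatidylserine lies, Atp11a had 0.22 and Xkr8 −0.11.

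Several of these values were smaller under the grouping by scan file letter, where none had an adjusted p under 0.893 in limma. Lrp1 then had −0.09, Vav1 −0.04, Grb2 −0.05, P2ry12 −0.07, P2ry6 −0.07, Atg5 −0.06, Abca7 −0.01, Abcg1 −0.10 and Xkr8 −0.02. Pik3r1 had 0.17 and Gulp1 0.68 under that grouping, while Cd300lf, Lgals3 and Atg7 had −0.16, −0.29 and −0.21. With the fibroblast median as a covariate Atg7 had −0.11, Lgals3 −0.12, Abca7 −0.13, Abcg1 −0.09 and P2ry6 −0.07. The endothelial median as a covariate moved them the other way, to −0.44, −0.41, −0.36, −0.32 and −0.25. Lrp1 and P2ry12 had −0.39 and −0.34 with the fibroblast median, and −0.13 and −0.15 with the endothelial median. Relative to the macrophage marker median every difference was 0.16 higher.

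**Figure D4:**
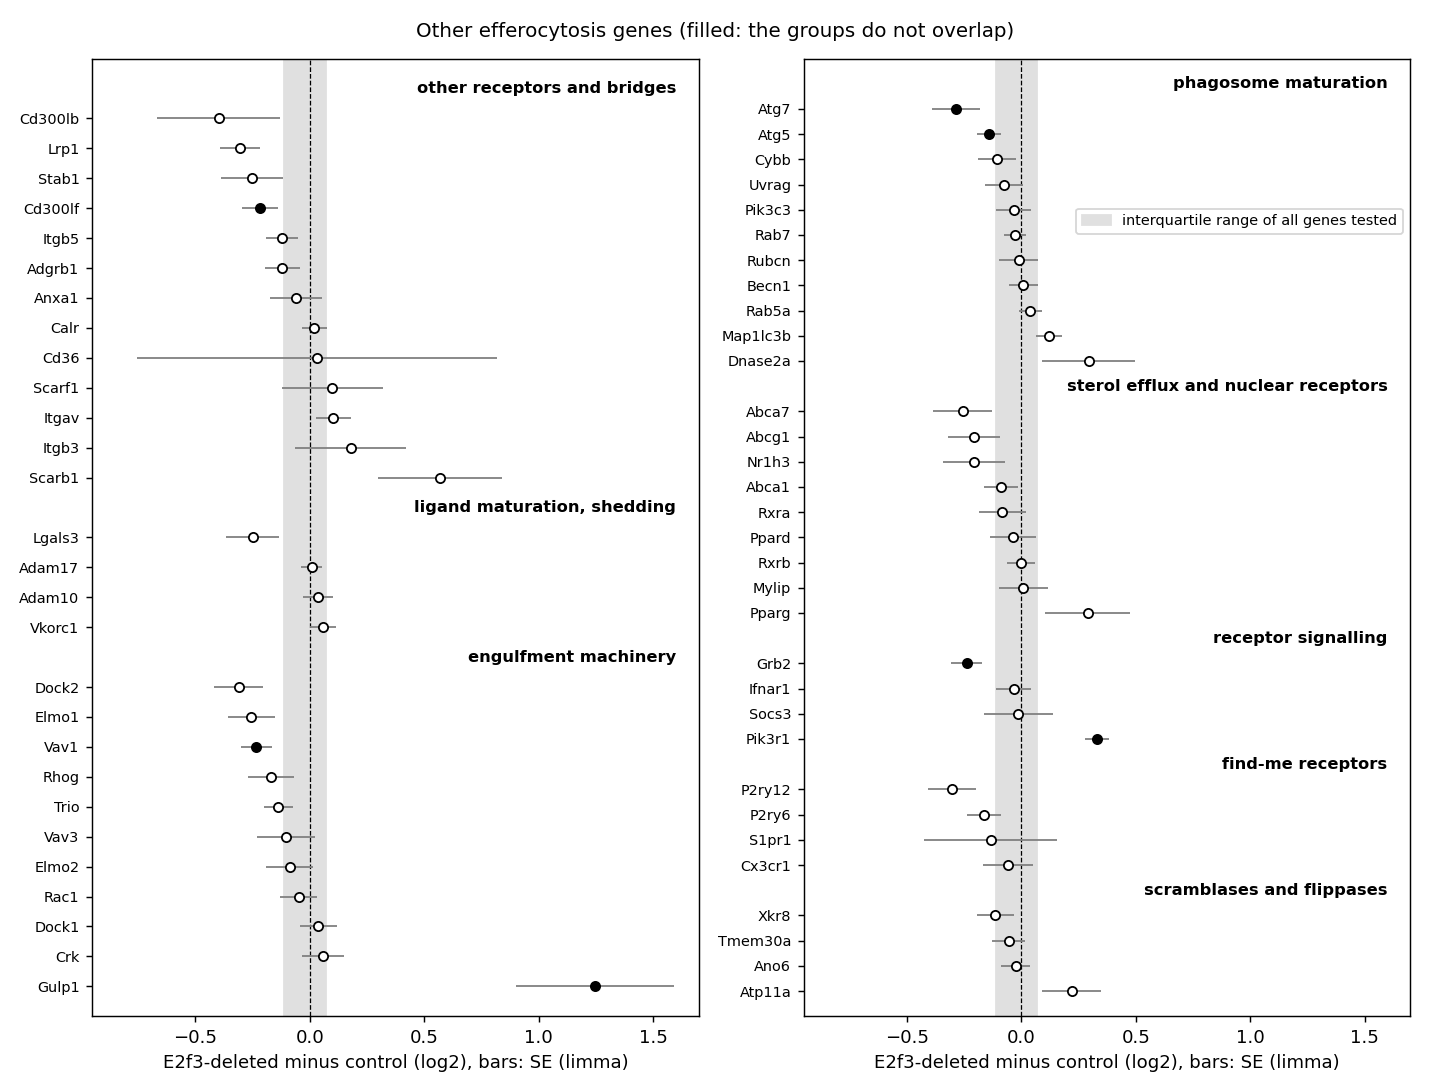
Log2 difference of E2f3-deleted from control arrays (horizontal axis) for the 60 other efferocytosis genes that passed the filter, by group, with limma standard errors. The grey band is the interquartile range of all 10916 genes tested, from −0.11 to 0.07, and filled circles mark the 7 genes whose groups do not overlap, Gulp1 being farthest from 0.

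For each of the 5 genes that passed the filter, the 3 genes most alike over the 8 arrays were found by Pearson's correlation, as a description. With 10916 genes and 8 arrays, high values are reached by many genes, and the arrays share the group difference. For Mertk these were Nudt18 (r = 0.976), Klk1 (r = 0.970) and Iscu (r = 0.968). The genes nearest to Gas6 were Stx12 (r = 0.958), Sqstm1 (r = 0.944) and Pdgfc (r = 0.929), and those nearest to Axl were Dpy19l1 (r = 0.981), Togaram2 (r = 0.974) and Ube2j1 (r = 0.941). Pros1 was closest to Dnajb9 (r = 0.981), Samd9l (r = 0.965) and Clmn (r = 0.960), and Mfge8 to Hnrnpr (r = 0.985), Wwp2 (r = 0.983) and Fam216a (r = 0.980).

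**Figure D5:**
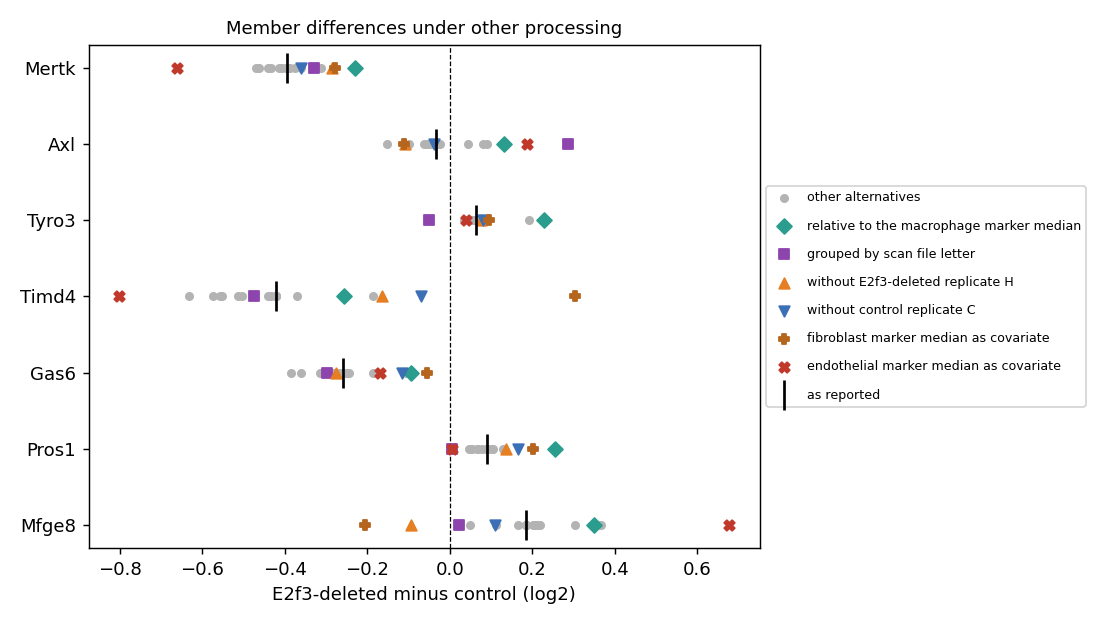
Difference of each of the 7 genes on the log2 scale (horizontal axis) as reported (black bars) and under other processing (symbols). Mertk stays between −0.66 and −0.23, Gas6 below 0 and Pros1 above 0 in all 20 alternatives run. Those that change only the filter or the variance prior cannot move a difference. Axl, Mfge8, Timd4 and Tyro3 change sign in at least 1.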

How the data were processed

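Total RNA of 8 samples was hybridised to Affymetrix arrays. The deposited values are log2 signals per probe set, made by the authors with RMA per the submitters' processing notes (background correction, quantile normalization, probe summary). The quantile normalization in RMA gives the probe values of all arrays one distribution, so it can hide a change that most genes share. The resulting probe set values had close but not identical medians, from 5.65 to 5.69. Its version is not given in the sources used here, and neither is a batch. The values were used as deposited.

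Of 45101 probe sets, 64 were controls, 34945 others had 1 gene symbol, 932 several and 9160 none here. Symbols were checked by Entrez identifier against a RefSeq table of GRCm38.p6 (34741 found, 0 changed). Genes under the 40th percentile of mean signal were left out, which left 10916. Groups were compared with limma 3.58.1 in R 4.3.3 (lmFit, eBayes, two-sided, Benjamini-Hochberg over all genes, or over the 45037 probe sets that are not controls where stated). Array number limits the precision. The highest correlation of a pair of arrays was 0.996 and the largest share of identical values 0.317%, so each was counted once. On simulated arrays of the 10916 genes with 200 changed, the share of changed genes found was 64.2% for a log2 change of 0.5, 80.6% for 1 and 95.5% for 2, with 6 false calls. The simulated noise was normal, independent between genes and equal in both groups, and the sizes of change were mixed. The real arrays had unequal spread, as for Mertk and Mfge8, and replicate H stood apart. These shares therefore need not hold for the real arrays.

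The members and gene lists were chosen with earlier results of these data known, so their counts beside shares of all genes are descriptions. Named were all members, in each further list the 2 genes with the smallest p, and the 3 genes most alike each member. A few others (Nr1h3, Adam17, Socs3, Ifnar1 and the single marker genes) were named after their values were seen. Alternatives covered the probe set summary, filter, normalization, macrophage reference level, variance prior, array weights, covariates, scan file grouping, left-out arrays and thresholds.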

Additional observations from a re-analysis of the deposited data

Results flagged for a closer look

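In groups of 4 arrays, 42 were examined for an array far from the other 3 (Dixon's ratio of gap to range above its 95% critical value), and 3 were found, where chance alone flags about 1 in 20. Timd4 in control replicate C had a log2 signal of 6.45, against 5.15 in the nearest control (ratio 0.889). Mfge8 in the same array had 11.76, below the nearest control at 12.03 (ratio 0.850). The median of the lymphocyte markers in E2f3-deleted replicate F was 0.30 above the control mean, against −0.80 in the nearest array of its group (ratio 0.855).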

How the results depend on the processing

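No paired analysis was possible because the replicate letters are not shared by the groups. The count of genes past the threshold, 0 as reported, was 1 relative to the macrophage marker median, 0 to 60 when 1 array was left out (60 without E2f3-deleted E, 14 without H) and 1547 at an unadjusted p under 0.05. At that unadjusted p there were 1 member gene, 3 member probe sets and 11 other efferocytosis genes, and 0 of each in every other alternative run for it. Mertk lost its separation of the groups relative to the macrophage marker median, where Pros1 was the member without overlap, and by scan file letter, where Axl was. The other changes run for it were further normalization, which kept it, and left-out arrays, filters and probe set means, which could not end it. Signs turned for Axl (0.13 relative to the macrophage markers, 0.19 and 0.081 with the endothelial and epithelial covariates, 0.29 by scan file letter, 0.045 without control B and 0.089 without E2f3-deleted F, in a range of −0.11 to 0.089 when 1 array was left out), Mfge8 (−0.21 with the fibroblast covariate, −0.095 without H, in a range up to 0.37), Timd4 (0.30 with the fibroblast covariate) and Tyro3 (−0.050 by scan file letter). The dim Axl probe set turned to 0.0042 on further quantile normalization, 0.15 relative to the macrophage markers, 0.0055 with the epithelial covariate, 4.5e-05 by scan file letter and 0.020 without E, in a range from −0.036. Relative to the macrophage markers Atg5 turned to 0.024, P2ry6 to 0.0030 and Xkr8 to 0.050, and by scan file letter Vkorc1 to −0.0033 and Atp11a to −0.14. The alternatives for single probe sets and for other named genes were added after the data were seen. No cause of these changes was tested. Signals of Tyro3, Timd4 and the dim Axl probe set near the background limit what can be read from them.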
